A study of Mus musculus with 50 samples.

Results

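The mRNAs described here encode the machinery that brings proteins into the endoplasmic reticulum (ER), glycosylates them there and packs them into transport vesicles. The members were chosen by gene symbol: the Sec61 channel and its Sec62 and Sec63 partners, the translocon-associated Ssr proteins, the signal recognition particle (Srp) and its receptor, signal peptidase (Spcs), the oligosaccharyltransferase (Rpn1, Rpn2, Dad1, Ddost, Stt3), the COPI and COPII vesicle coats, and the Tmed and Sec22 families. This gave 58 genes of the 19057 with a named probe, each read from 1 probe, and 52 of them were detected on at least 3 arrays and tested, among 12644 genes in all. Copb1, Sec24a, Sec31b, Sec62, Srp54b and Tmed11 fell short of that limit and have no result here. Of the 52 tested members, 26 are made by ribosomes on the ER membrane because they carry a signal peptide or signal anchor, 23 are made in the cytosol, and 3 (Sec61b, Sec61g and Sec22b) are tail-anchored proteins, which are made in the cytosol and inserted afterwards. Classes were assigned from textbook knowledge of each protein, and that of Tmed8 from its family name only.

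The cells were derivatives of NIH 3T3, an established mouse fibroblast line. In the inducible derivative, mifepristone switches on eIF4E, the protein that binds the mRNA cap to start translation, and a non-inducible derivative served as its control. From each of 25 cultures, polysome-associated RNA and total RNA were hybridised to Illumina bead arrays, 50 arrays in all, after 4 h of treatment. Labels of the polysome arrays carry the word heavy, without the number of ribosomes per mRNA that it stands for. Inducible cells with mifepristone received 4Ei-1, an inhibitor of eIF4E, at 10, 50, 100 or 200 µM, or 4Ei-4, a less potent analog, at 200 µM, or no drug (0 µM). The remaining groups were inducible cells without mifepristone and non-inducible cells with or without it, all with no drug. Each group had 3 cultures, except non-inducible cells without mifepristone, which had 1. All cultures carried the cycloheximide treatment that holds ribosomes on mRNA, and the labels do not say whether either derivative was a clone or whether replicates were grown separately, so p-values measure the spread among these cultures.

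Cultures were processed in 4 batches. Batch 4 held every 4Ei-4 and non-inducible culture and nothing else, and all 10 µM cultures were in batch 3. Mean intensity per array ran from 200 to 436 for polysome RNA and from 183 to 381 for total RNA. Between 23.9% and 37.8% of probes were detected on polysome arrays, against 25.5% to 39.9% on total RNA arrays. Of 9 fibroblast markers, 8 were detected on every array, while the 2 endothelial markers were detected on none and the 4 epithelial, 2 immune and 2 muscle markers on at most 19, 6 and 29 arrays. Levels below are background-corrected, quantile-normalized log2 intensities. Translational efficiency is the log2 level in polysome RNA minus the log2 level in total RNA of the same culture. A negative value means that an mRNA made up less of the polysome RNA than of the total RNA. Throughout, polysome RNA and polysomes refer to the fraction labelled heavy. If that fraction leaves out lighter polysomes, an mRNA on those cannot be told apart from an mRNA off polysomes.

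As background, most proteins bound for secretion or for membranes begin with a hydrophobic signal that the signal recognition particle catches as it leaves the ribosome. The particle docks the ribosome on its receptor at the ER, the chain threads through the Sec61 channel, signal peptidase trims it and the oligosaccharyltransferase attaches sugar chains to it. COPII coats then carry cargo from the ER towards the Golgi, COPI coats carry escaped proteins back, and fibroblasts use this route for their collagens and other matrix proteins.

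Most members were under-represented in the heavy polysome fraction. Of the 52 tested, 28 (53.8%) were lower in polysome RNA than in total RNA and 11 (21.2%) were higher, at an adjusted p below 0.05 in limma with Benjamini-Hochberg adjustment over all genes tested. Over all genes, 18.2% were lower and 26.9% were higher, 45.1% together. Differences are averages of the 9 groups. The median difference was -0.69 over the members and 0.05 over all 12644 genes. In the ER-translated class 21 of 26 were lower and 1 was higher, with a median of -0.99, whereas in the cytosol-translated class 5 of 23 were lower and 9 were higher, with a median of 0.03. Of the tail-anchored proteins, Sec61b and Sec61g were lower and Sec22b was higher. The difference between classes was not tested as such, since members of a complex are not replicates. Coding lengths were not available, so the classes were not matched for length. Site of synthesis and coding length cannot be told apart here. Quantile normalization sets every array to the same distribution, so each value is relative to the other mRNAs of its fraction. In bulk RNA, fewer cells with an mRNA and less of it per cell cannot be told apart.

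**Figure D1:**
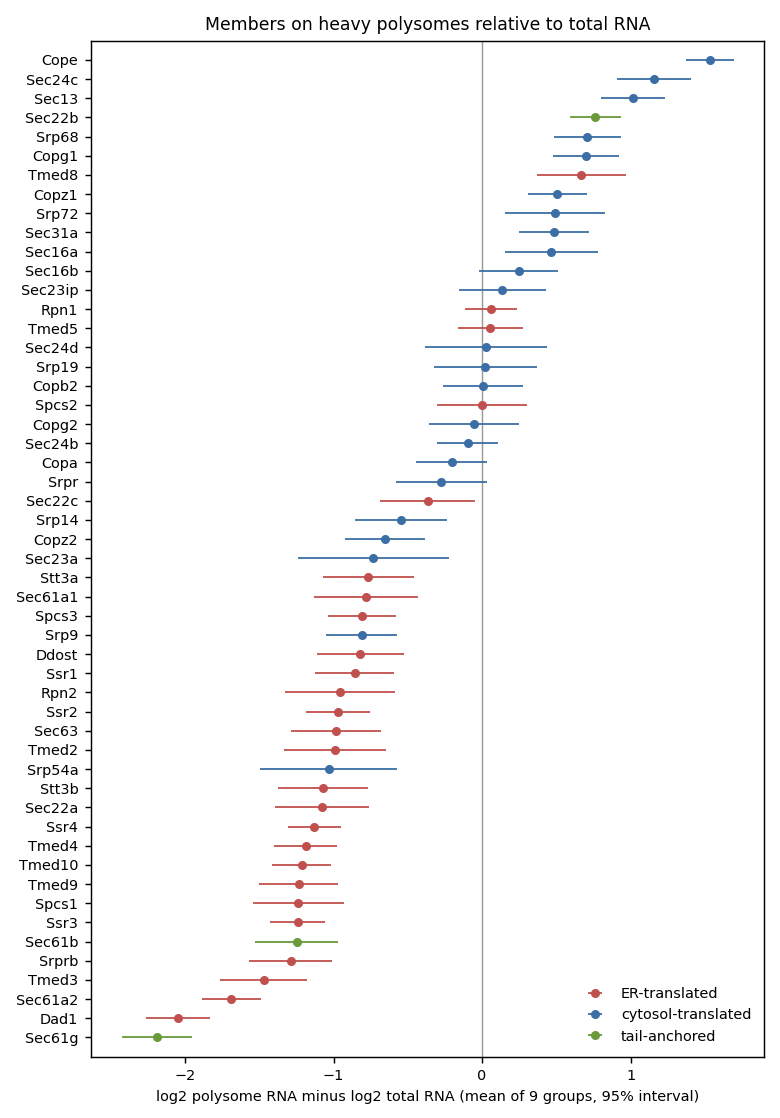
Each row is a tested member, and the horizontal axis gives log2 polysome RNA minus log2 total RNA as the mean of the 9 groups with its 95% interval (limma), coloured by where the protein is made. ER-translated members lie mostly below 0 (median -0.99), and cytosol-translated members lie on both sides of it (median 0.03).

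**Figure D2:**
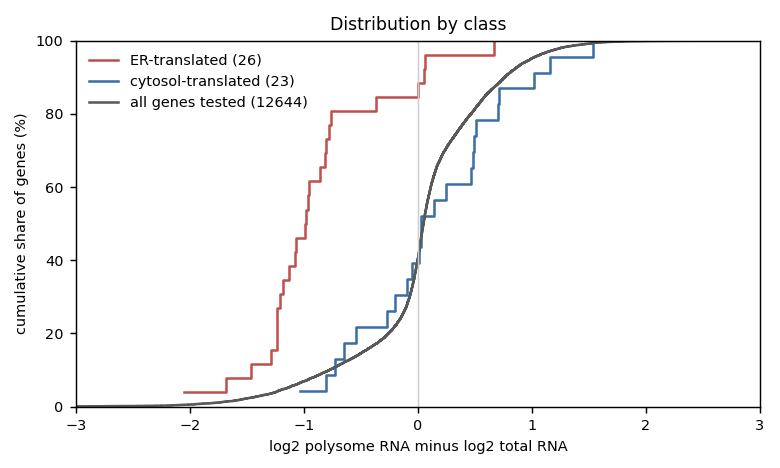
Cumulative share of genes (vertical axis, percent) at or below each value of log2 polysome minus log2 total RNA (horizontal axis), for the 26 ER-translated members, the 23 cytosol-translated members and all 12644 genes tested. The curve of the ER-translated members lies to the left, around its median of -0.99, and that of all genes passes its middle at 0.05.

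All 9 tested translocon mRNAs were lower on polysomes, with a median difference of -1.13. Sec61g encodes a small subunit that clasps the Sec61 channel, and its polysome level ran from 7.39 over a median of 8.43 to 9.62 in the 25 cultures, against 9.81 over 10.58 to 11.71 in total RNA. The ranges did not overlap, and the polysome level was the lower in each of the 25 cultures (difference -2.19 ± 0.11, SE, adjusted p = 1.07e-12, limma). That difference was among the lowest of all genes, with 0.269% of them lower. Sec61a2, which encodes one of the alternative channel subunits, had polysome levels of 6.10, 6.63 and 7.32 at the lowest, median and highest culture, against 7.84, 8.30 and 8.91 in total RNA. Again no polysome level reached a total RNA level, and the difference was -1.69 ± 0.10 (SE, adjusted p = 3.63e-12, limma). Its close relative Sec61a1 differed by less (-0.78 ± 0.17), was higher in polysome RNA in 5 of 25 cultures, and ran from -1.94 to 0.84 in efficiency. Sec61b, the other small subunit, differed by -1.25 ± 0.13. The 4 subunits of the translocon-associated protein complex, which helps some chains to enter the channel, lay close together: Ssr3 at -1.24 ± 0.09, Ssr4 at -1.13 ± 0.09, Ssr2 at -0.97 ± 0.10 and Ssr1 at -0.86 ± 0.13. Sec63, which recruits the chaperone BiP to the channel, differed by -0.98 ± 0.15.

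In the processing enzymes the same direction held for every member that was well detected. Dad1, a small subunit of the oligosaccharyltransferase, had polysome levels of 8.15, 9.35 and 10.35 at the lowest, median and highest culture, against 10.88, 11.36 and 11.71 in total RNA. These ranges did not overlap either (difference -2.05 ± 0.10, SE, adjusted p = 7.08e-13, limma). The catalytic subunits Stt3b and Stt3a differed by -1.07 ± 0.15 and -0.77 ± 0.15, and the other subunits Rpn2 and Ddost by -0.96 ± 0.18 and -0.82 ± 0.14. Rpn2 spread widely between cultures, with an efficiency from -2.41 to 0.47, and was higher in polysome RNA in 4 of them. Of the signal peptidase accessory subunits, Spcs1 differed by -1.24 ± 0.15 and Spcs3 by -0.81 ± 0.11. The 2 that stayed near 0, Rpn1 at 0.06 ± 0.08 and Spcs2 at 0.00 ± 0.15, were each detected on 3 of 50 arrays, so their values compare background with background.

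The Tmed proteins are cargo receptors that cycle between ER and Golgi. Tmed3 had polysome levels of 6.90, 8.06 and 9.42 at the lowest, median and highest culture, against 8.65, 9.55 and 10.03 in total RNA. The ranges overlapped, yet the polysome level was the lower in every one of the 25 cultures (-1.47 ± 0.14, SE, adjusted p = 9.04e-09, limma). Tmed9, Tmed10, Tmed4 and Tmed2 fell between -1.24 and -0.99 and all passed the test. Tmed5 stood at 0.06 ± 0.11 and was detected on 16 arrays. Tmed8 was the ER-translated member that was higher on polysomes, by 0.67 ± 0.14 (adjusted p = 0.000414, limma), and it is the member whose class rests on its family name. In the Sec22 family the ER-translated Sec22a was lower by -1.08 ± 0.15 and Sec22c did not pass (-0.37 ± 0.16, adjusted p = 0.0592, limma). Sec22b, the tail-anchored SNARE that fuses vesicles between ER and Golgi, went the other way. Its polysome levels were 10.66, 11.44 and 12.0 at the lowest, median and highest culture, against 9.96, 10.52 and 11.52 in total RNA, and it was higher on polysomes in 23 of 25 cultures (0.76 ± 0.08, SE, adjusted p = 4.81e-08, limma).

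The coat mRNAs, whose proteins are made in the cytosol, had no common direction. Among 7 tested COPI subunits 3 were higher on polysomes, 1 was lower and the median was 0.01. Cope, the epsilon subunit, had polysome levels of 11.80, 12.66 and 13.14 at the lowest, median and highest culture, against 10.66, 11.19 and 11.41 in total RNA. Its polysome levels all lay above its total RNA levels (1.54 ± 0.08, SE, adjusted p = 6.82e-13, limma). Copz1 was higher by 0.51 ± 0.10 and its relative Copz2 was lower by -0.65 ± 0.13, while Copa (-0.20 ± 0.11) and Copb2 (0.01 ± 0.13) did not pass. Copg1, a gamma subunit, was higher by 0.70 ± 0.11 on the probe used, but the other 3 probes for it that were detected on at least 35 arrays averaged -1.62, -0.36 and -0.41, and the mean over its probes was lower (-0.39, adjusted p = 0.00643, limma). Its direction therefore rests on the choice of probe. With the mean over probes, Copz1 kept its direction but did not pass (0.13, adjusted p = 0.118, limma).

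Among 9 tested COPII members 4 were higher, 1 was lower and the median was 0.25. Sec13, a subunit of the outer coat that also works in the nuclear pore, had polysome levels of 12.15, 12.84 and 13.20 at the lowest, median and highest culture, against 10.79, 11.80 and 12.14 in total RNA. The polysome range began just above the end of the total RNA range (1.02 ± 0.10, SE, adjusted p = 2.54e-08, limma). Sec24c, which binds cargo, had levels of 8.17, 10.02 and 10.97 in polysome RNA, against 7.74, 8.44 and 9.20 in total RNA. It was higher in 25 of 25 cultures although the ranges overlapped (1.16 ± 0.12, SE, adjusted p = 2.63e-08, limma). The scaffold Sec16a was higher by 0.47 ± 0.15 and the outer coat subunit Sec31a by 0.48 ± 0.11, though a second Sec31a probe, detected on 49 arrays, averaged -0.17 against 0.54 for the one used. Sec23a, of the inner coat, was lower (-0.73 ± 0.25, adjusted p = 0.0173, limma).

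The signal recognition particle split among its own subunits. Srp68 and Srp72, which bind each other on the particle's RNA, were higher on polysomes by 0.71 ± 0.11 and 0.49 ± 0.16. Srp9 and Srp14, the pair that pauses elongation, were lower by -0.81 ± 0.11 and -0.55 ± 0.15, and so was Srp54a, the subunit that grips the signal, by -1.03 ± 0.22. Mouse Srp54 has near-identical gene copies that a probe may not tell apart. Of the receptor, Srprb, the membrane-anchored beta subunit, was lower in every culture (-1.29 ± 0.13), and Srpr, the alpha subunit, did not pass (-0.27 ± 0.15, adjusted p = 0.15, limma).

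Detection moved with the size of these values. In the ER-translated class, 15 members were detected on all 50 arrays and 15 of them were lower, and 10 of the 26 were lower in every culture. In the cytosol-translated class 14 were detected on every array, of which 8 were higher and 3 were lower. Of all 12644 genes, 18.2% were lower and 26.9% were higher. The shares among all genes detected on every array, or lower in every culture, are not given here. All genes were also split into 10 equal bins by mean total RNA level, which is the term subtracted in the difference. Outside the brightest bin the median difference was between 0.02 and 0.19, and in the brightest bin it was -0.13. The 10 ER-translated members in that bin had a median of -1.20 and the 7 cytosol-translated members a median of 0.01. The size of some called differences depended on the background correction, though their direction and call did not. With the authors' deposited log2 values and without background correction, Sec61a2 stood at -0.87 and -1.01, Srp54a at -0.37 and -0.50, Srp68 at 0.28 and 0.37, Tmed8 at 0.21 and 0.30, and Sec23a at -0.22 and -0.32. Srp9 stood at -0.50 with the deposited values, and Sec23a at -1.20 with the replicate block. With the mean over all detected probes of a gene, Dad1 was at -0.996, Srprb at -0.71 and Sec24c at 0.55, all still called.

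Genes of the same pathway outside the symbol rule were counted as 1 list, with 46 of 49 tested. Of these, 30 were lower and 6 were higher on polysomes, against 18.2% lower and 26.9% higher over all genes. Their median was -0.82, against 0.05 over all genes. The list was chosen with earlier results of these data known. The KDEL receptors Kdelr2 (-2.27 ± 0.20) and Kdelr3 (-1.74 ± 0.12), which retrieve ER proteins, the oligosaccharyltransferase subunits Ost4 (-1.87 ± 0.11) and Ostc (-1.72 ± 0.12), and Tram1 (-1.48 ± 0.09), a neighbour of the channel, lay among the lowest. The 6 that were higher were Gosr1 (1.32), Stx5a (0.81), Rab1a (0.73), Preb (0.69), Uso1 (0.38) and Gosr2 (0.31). Gosr1, Gosr2 and Stx5a are Golgi SNAREs, Rab1a and Uso1 act in tethering vesicles, and Preb activates the GTPase that starts COPII assembly. The genes of that GTPase, Sar1b (-1.54) and Sar1a (-0.40), were both lower, and Sar1b lay below Tram1. Among the other SNAREs and Rab genes of the list, Bet1 (-1.03), Bet1l (-0.83) and Rab1b (-0.73) were lower. Ykt6 (0.08) and Rab2a (0.08) did not pass.

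Class medians were also taken culture by culture. The median efficiency of the 26 ER-translated members ran from -1.51 to -0.06 over the 25 cultures, with a median of -0.96, and that of the 23 cytosol-translated members from -0.34 to 0.85, with a median of 0.17. All genes had medians between 0.01 and 0.09. The ER-translated median was below that of the cytosol-translated members in 25 of 25 cultures, by 0.45 to 1.61, and below that of all genes in 25 of 25. The cytosol-translated median was above that of all genes in 17 of 25.

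**Figure D3:**
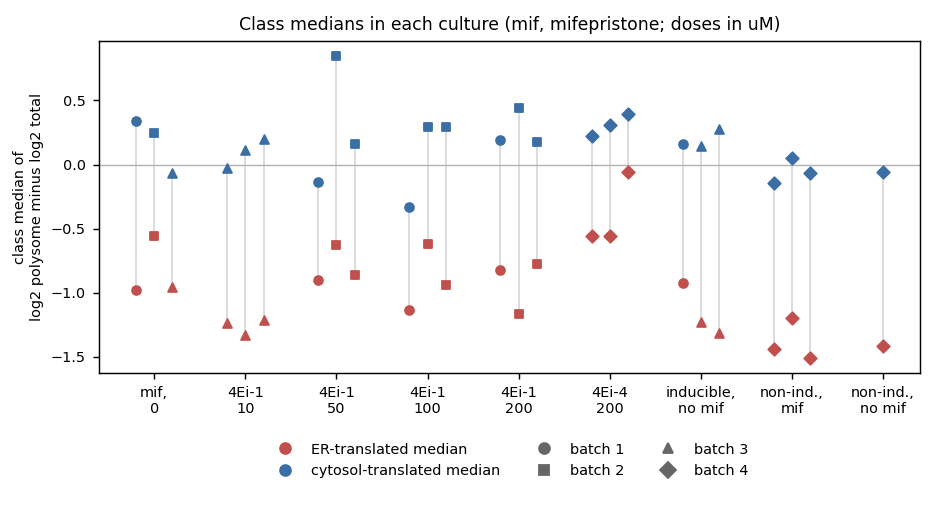
Median efficiency (log2 polysome minus log2 total RNA) of the ER-translated and the cytosol-translated members in each of the 25 cultures, by group, with marker shapes for the 4 processing batches and a line joining the 2 medians of a culture. The ER-translated median is the lower in all 25 cultures and reaches its highest value, -0.06, in a 4Ei-4 culture.

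By group, the ER-translated median averaged -0.83 ± 0.24 (SD, n = 3 here and below) at 0 µM with mifepristone, -1.26 ± 0.06 at 10 µM 4Ei-1, -0.80 ± 0.15 at 50 µM, -0.90 ± 0.26 at 100 µM and -0.92 ± 0.21 at 200 µM. It averaged -0.39 ± 0.29 with 4Ei-4. Inducible cells without mifepristone averaged -1.16 ± 0.21, non-inducible cells with mifepristone -1.38 ± 0.17, and the 1 non-inducible culture without it stood at -1.42. The highest and the lowest group averages therefore both came from batch 4. Medians over members were described by these values and not tested.

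Promoters were read for 51 of the 58 members, which have 54 windows from 250 bases before to 50 bases after the start in the RefSeq table (GRCm38.p6). Factors of the ER stress response bind known DNA motifs, and 7 motifs were searched on both strands. The motif TGACGTGG, the core of an element bound by XBP1 and ATF6, was in 5 of the 54 windows (9.26%) and in 0.676% of all 32851 windows, and all 5 genes encode coat subunits or, for Sec16b, a scaffold of COPII assembly. It was singled out after the counts of all 7 were seen, and base composition was not matched. The short CCACG, which lies within the reverse strand of that motif, was in 68.5% of the members' windows, against 32.8% of all windows. The CCAAT box was in 46.3% of members' windows, against 37.4% of all, and the cyclic AMP element TGACGTCA was in 1.85%, against 1.79%. The TATA box, searched as TATAAA, was in 1.85%, against 13.6%. The longer ER stress elements ERSE and ERSE-II were in 0 members' windows, against 0.119% and 0.0365% of all. The 5 stretches, written 5′ to 3′ on the strand of the gene with the match in capitals, lie at chr7:114254690-114254719 (Copb1, minus strand), chr9:98563713-98563742 (Copb2, plus), chr1:157506741-157506770 (Sec16b, plus), chr12:59011993-59012022 (Sec23a, minus) and chr3:123267459-123267488 (Sec24d, plus). A match describes the letters only.
Copb1: cccgcccccttCCACGTCAgccaaggactt
Copb2: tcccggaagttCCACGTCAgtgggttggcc
Sec16b: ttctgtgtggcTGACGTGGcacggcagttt
Sec23a: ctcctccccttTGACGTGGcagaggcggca
Sec24d: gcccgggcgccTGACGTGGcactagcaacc

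The first treatment question was whether raising eIF4E moves these mRNAs into or out of the heavy polysome fraction. With mifepristone against without, in inducible cells, limma called 0 members in efficiency, polysome RNA and total RNA, where it called 0%, 0.403% and 0.625% of all genes. At an unadjusted p below 0.05 there were 3, 6 and 1 members, or 5.77%, 11.5% and 1.92% of those tested, against 4.41%, 8.13% and 8.09% of all genes. The median efficiency difference was 0.13 over the ER-translated members, -0.17 over the cytosol-translated members and 0.01 over all genes. Ssr2, the beta subunit of the translocon-associated complex, had efficiencies of -0.85, -0.48 and -0.64 in the 3 cultures with mifepristone, against -1.10, -1.27 and -1.51 in the 3 without. All 3 cultures with mifepristone were the higher, but the fitted difference of 0.58 ± 0.30 did not pass (adjusted p = 0.994, limma). Copb2, a COPI subunit, had 0.38, -0.07 and -1.29 with mifepristone, against 1.01, -0.29 and -0.26 without. These overlapped, and the fitted -0.98 ± 0.27 had the lowest p among members detected on every array compared but did not pass (adjusted p = 0.994, limma).

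4Ei-1 was given to cells with mifepristone at 4 doses. Each was compared with the same 3 cultures at 0 µM, so the comparisons share those controls. All 10 µM cultures were in batch 3, where replicate 3 was the only 0 µM culture with mifepristone. The 10 µM comparison therefore leans on the fitted batch term. Srp14 in polysome RNA, for example, had a fitted -0.51, not called, although its group means were 10.69 at 10 µM and 9.52 at 0 µM. At 10 µM limma called 0 members in efficiency, polysome RNA and total RNA, as it called 0% of all genes. At an unadjusted p below 0.05 there were 1, 0 and 1 members (1.92%, 0% and 1.92%), against 0.989%, 1.08% and 1.27% of all genes. At 50 µM it also called 0 members, against 0.0158%, 0% and 0.158% of all genes. The unadjusted counts there were 3, 2 and 6 members (5.77%, 3.85% and 11.5%), against 10.2%, 6.26% and 12.1% of all genes. At 100 µM and at 200 µM it called 1 member each in efficiency, Srp72, or 1.92% of those tested, against 0.316% and 0.403% of all genes. In polysome and total RNA it called 0 members at 100 µM, against 0.0949% and 0.482% of all genes. Unadjusted, 2 and 9 members passed (3.85% and 17.3%), against 10.9% and 13.7% of all genes. At 200 µM it called 0 members in polysome and total RNA, against 0.0158% and 0.19% of all genes. Unadjusted, 6 and 8 members passed there (11.5% and 15.4%), against 12.8% and 11.8% of all genes. The slope over the 5 doses was called for 0 members in efficiency, polysome RNA and total RNA, against 0.0237%, 0% and 0.0395% of all genes. Its unadjusted counts were 6, 3 and 8 members (11.5%, 5.77% and 15.4%), against 11.8%, 11.8% and 10.4% of all genes.

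Srp72 anchors the large domain of the signal recognition particle to its RNA. Its efficiency was 1.36, 1.76 and 0.23 in the 3 cultures at 0 µM, -0.40, 0.83 and -0.24 at 100 µM, and -1.34, 0.81 and 0.45 at 200 µM. Both drug groups overlapped the control range, and the drug culture was the higher in 1 of 9 pairs at 100 µM and in 2 of 9 at 200 µM. The fitted differences were -1.68 ± 0.33 at 100 µM (adjusted p = 0.0343, limma) and -1.77 ± 0.33 at 200 µM (adjusted p = 0.0266, limma). Within batches, the 200 µM difference was -2.70 in batch 1 and -1.13 in batch 2. The polysome levels were 5.97, 6.59 and 6.48 at 0 µM, 4.68, 6.71 and 5.70 at 100 µM and 4.72, 6.72 and 5.97 at 200 µM, and the total RNA levels were 4.61, 4.83 and 6.26 at 0 µM, 5.08, 5.89 and 5.95 at 100 µM and 6.06, 5.91 and 5.53 at 200 µM. The culture of batch 1 was the lowest in polysome RNA at each of these 3 doses. These levels are near the detection limit: in each comparison Srp72 was detected on 9 of 12 arrays, and in total RNA at 0 µM on 1 of 3.

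The Srp72 calls depended on the handling of dim probes and of batch. They were lost with the authors' deposited log2 values (-0.18 and -0.20 at 100 and 200 µM), without background correction (-0.54 and -0.56) and without the batch term (-1.05 and -1.14). Leaving out replicate 1 at 0 µM ended both calls (adjusted p = 0.105 and 0.094, limma). The call at 100 µM was also lost without 100 µM replicate 3 (0.057) and with the replicate number as a block (0.0658), and that at 200 µM without 0 µM replicate 2 (0.0501) or 200 µM replicate 1 (0.0685), each an adjusted p of limma. For efficiency at 100 µM, each of the 3 same-numbered pairs of cultures deviated together, with correlations of 0.13, 0.17 and 0.22 over genes.

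Tmed8 and Stt3a were chosen for description after their values were seen. Tmed8 had efficiencies of -0.38, -0.10 and -0.17 at 200 µM, against 2.02, 1.74 and 0.81 at 0 µM, which did not overlap, but the fitted -1.73 ± 0.41 did not pass (adjusted p = 0.065, limma). Without 0 µM replicate 3 it did pass (-2.14, adjusted p = 0.00444, limma), as did its efficiency in the comparison of mifepristone with none (2.47, adjusted p = 0.0218, limma). The Tmed8 probe was dim: it was detected on 43 of 50 arrays, and its total RNA level ran down to 4.45 over all cultures. Stt3a had efficiencies of -0.87, -1.73 and -0.90 at 200 µM, against 0.06, 0.22 and -1.21 at 0 µM, and its -1.39 ± 0.33 did not pass either (adjusted p = 0.0716, limma), except without 200 µM replicate 1 (-1.84, adjusted p = 0.0201, limma). Its polysome signal was detected on 0 of 3 arrays at both 100 and 200 µM. Sec61g, the member with the lowest value between fractions, had efficiencies of -2.38, -1.64 and -1.95 at 200 µM, against -2.01, -2.10 and -2.35 at 0 µM, which overlapped.

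**Figure D4:**
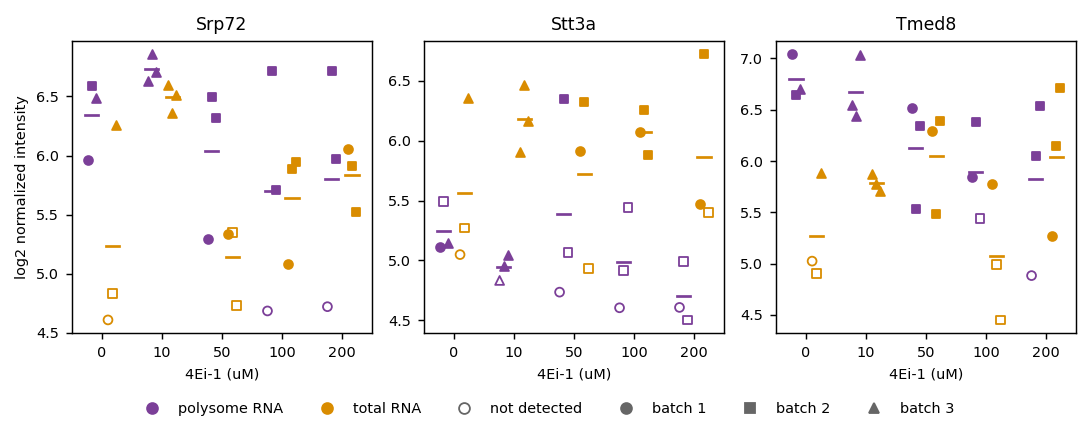
Log2 levels of Srp72, Stt3a and Tmed8 in polysome RNA and in total RNA of every culture with mifepristone, at 0, 10, 50, 100 and 200 µM 4Ei-1, with the mean of each group as a bar, marker shapes for batches, and hollow markers where the probe was not detected. For Srp72 the total RNA levels at 0 µM (4.61, 4.83 and 6.26) and the polysome levels at 200 µM (4.72, 6.72 and 5.97) spread widely and include hollow markers.

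The 2 compounds could be compared at 1 matched dose, 200 µM, with 1 pair and 3 measures. 4Ei-1 against 4Ei-4 gave 0 called members in efficiency, polysome RNA and total RNA by limma, where 0%, 0% and 0.00791% of all genes were called, and 5, 3 and 3 members (9.62%, 5.77% and 5.77%) had an unadjusted p below 0.05, against 5.79%, 6.27% and 4.54% of all genes. The median efficiency difference was -0.52 over the ER-translated members, of which 4 of 26 were above 0, -0.12 over the cytosol-translated members and -0.01 over all genes. Neither the medians nor that count were tested, and the share of all genes above 0 is not given here. Spcs3, a signal peptidase subunit, had efficiencies of -0.70, -1.12 and -1.66 with 4Ei-1, against 0.02, -0.32 and 0.30 with 4Ei-4. The groups did not overlap, and the difference of -1.14 (95% interval -1.86 to -0.42) did not pass (adjusted p = 0.729, limma). The polysome level of Cope was 13.09, 12.76 and 13.07 with 4Ei-1, against 11.80, 12.06 and 11.88 with 4Ei-4, a difference of 0.99 (0.33 to 1.65) that did not pass either (adjusted p = 0.652, limma). Over the 52 members the median 95% interval reached 0.85 to either side in efficiency, 0.93 in polysome RNA and 0.67 in total RNA, and lay within 1 log2 unit of 0 for 12, 10 and 35 members. A difference of 1 log2 unit thus lies within the interval for most members in efficiency and polysome RNA. Batch and compound cannot be told apart because the compounds were in different batches.

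4Ei-4 against no drug, both with mifepristone, gave 0 called members in each measure, against 0.00791%, 0% and 0.00791% of all genes. In limma 6, 1 and 1 members (11.5%, 1.92% and 1.92%) had an unadjusted p below 0.05, against 3.85%, 2.55% and 2.83% of all genes. The ER-translated median efficiency difference was 0.37, with 23 of 26 members above 0, beside 0.07 over the cytosol-translated members and 0.01 over all genes. The share of all genes above 0 is not given here, and neither the medians nor the count were tested. This comparison shares its cultures with those of 4Ei-1 and with the comparison of the compounds. Sec63 had efficiencies of 0.18, -0.22 and 0.13 with 4Ei-4, against -1.01, -0.63 and -1.41 without drug, which did not overlap (1.05 ± 0.45, adjusted p = 1, limma). Sec61a1 had 0.20, -0.02 and 0.75 with 4Ei-4, against -0.80, -0.06 and -1.45 without drug (1.09 ± 0.52, adjusted p = 1, limma). Here too the batches differ between the groups.

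Mifepristone in the non-inducible line, 3 cultures against 1, gave 0 called members in each measure by limma, as it gave 0% of all genes. At an unadjusted p below 0.05 there were 0, 1 and 1 members (0%, 1.92% and 1.92%), against 0.277%, 0.562% and 0.933% of all genes. The single culture without mifepristone is assumed to vary like the other groups.

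The inducible line was compared with the non-inducible line, both with mifepristone. The cultures came from different batches, so line and batch cannot be told apart in this comparison. Batch 4 also held inducible cells, but all with 4Ei-4, so within it line and compound cannot be told apart. In efficiency limma called 0 members and 0% of all genes. At an unadjusted p below 0.05 there were 10 members (19.2%), against 8.07% of all genes. Dad1 had efficiencies of -1.82, -1.97 and -1.47 in the inducible line, against -2.74, -2.71 and -3.03 in the non-inducible line, without overlap (1.07 ± 0.32, adjusted p = 0.464, limma). In polysome RNA 1 of 52 members was called, or 1.92%, against 2.57% of all genes. That member was Ssr2, with levels of 10.40, 10.74 and 10.50 in the inducible line, against 8.75, 9.28 and 9.21 in the non-inducible line (1.47 ± 0.39, adjusted p = 0.0445, limma). The 4Ei-4 cultures, which are inducible cells processed in batch 4, had 11.20, 11.01 and 11.32. The call was lost in 5 of the 6 fits that left out 1 culture, all but the one without non-inducible replicate 2 (adjusted p up to 0.124), and over genes detected on every array (adjusted p = 0.199, limma).

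In total RNA 3 of 52 members differed between the lines, or 5.77%, against 6.24% of all genes. Copz1, a COPI subunit, had levels of 11.21, 11.67 and 10.81 in the inducible line, against 10.28, 10.17 and 10.13 in the non-inducible line (1.03 ± 0.24, adjusted p = 0.0112, limma). Sec61g had 10.21, 9.81 and 10.78 in the inducible line, against 11.61, 11.71 and 11.59 in the non-inducible line (-1.37 ± 0.31, adjusted p = 0.0112, limma). Neither pair of groups overlapped, and both calls held in 6 of 6 fits that left out 1 culture. The 4Ei-4 cultures of batch 4 had 10.87, 10.94 and 10.90 for Copz1, a mean of 10.90 beside 11.23 in the inducible and 10.20 in the non-inducible line. For Sec61g they had 10.17, 10.12 and 10.58, a mean of 10.29 beside 10.26 and 11.64. Srp68 had 6.96, 7.12 and 6.12 in the inducible line, against 5.67, 5.49 and 5.77 in the non-inducible line (1.09 ± 0.28, adjusted p = 0.0242, limma). The 4Ei-4 cultures had 5.96, 6.20 and 6.34 for Srp68, a mean of 6.17 beside 6.73 in the inducible and 5.64 in the non-inducible line. The size of the Srp68 difference depended on the processing: it was 0.30 with the authors' deposited log2 values and 0.48 without background correction, both still called. The call was lost over genes detected on every array (1.09, adjusted p = 0.0615, limma) and without inducible replicate 1 or 2 or non-inducible replicate 2 (adjusted p up to 0.0759).

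**Figure D5:**
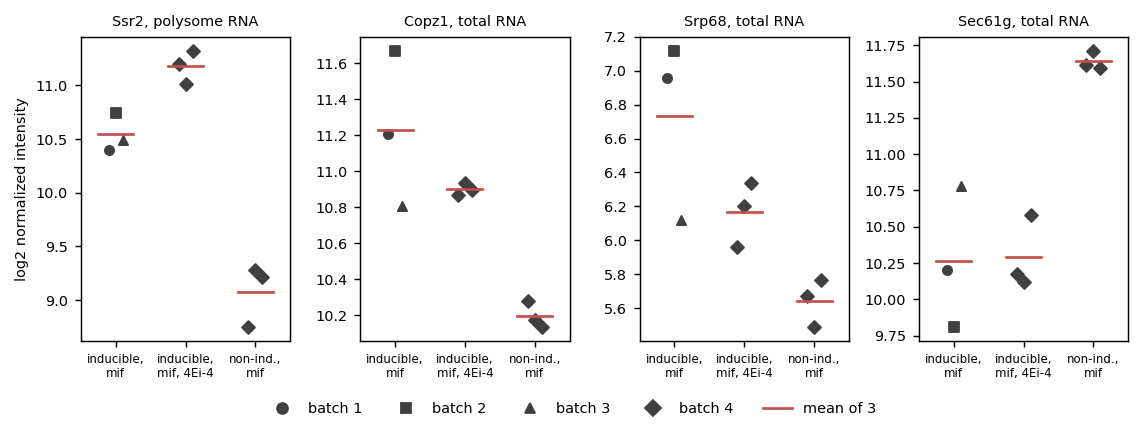
Log2 levels of Ssr2 in polysome RNA and of Copz1, Srp68 and Sec61g in total RNA in each culture of the inducible line with mifepristone, the inducible line with mifepristone and 4Ei-4, and the non-inducible line with mifepristone. Ssr2, Copz1 and Srp68 are higher and Sec61g is lower in all inducible cultures shown than in the 3 non-inducible cultures.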

How the data were processed

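The authors deposited a linear intensity for each of 45281 probes on 50 arrays, with a detection p-value beside it per the file headers. A further deposited table holds log2 values, whose normalization the sources used here do not give; they rank the probes of each array as the intensities do. Per the deposited platform annotation, 34885 probes name 1 gene symbol, 18 name several and 10378 are absent from it.

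Background correction used limma 3.58.1 in R 4.3.3 (normal-exponential model with detection p-values, offset 16), followed by log2 and quantile normalization. Each gene was read from its brightest probe by mean log2 level. Tests covered the 12644 of 19057 genes with a detection p below 0.05 on 3 or more arrays. All 58 members were found in the RefSeq gene table, and 34 have several probes. One limma model per measure covered all 25 cultures, with a term for each group and batch as a fixed term. For polysome against total RNA and for comparisons of batch 4 with other batches, batch was a random block (statmod 1.5.0). Its correlations were 0.172, 0.448 and 0.407 in efficiency, polysome RNA and total RNA. P-values were Benjamini-Hochberg adjusted over all genes tested, and the scripts were tested on simulated data. The number of arrays limits the precision.

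The members, classes and lists were chosen with earlier results of these data known. Full statistics go to members called in a comparison, at most 8 each way. Where none was called they go to the 4 lowest p-values among members detected on all arrays of that comparison, and between fractions also to the 3 highest and 3 lowest of each class. Alternatives were the deposited log2 values, no background correction, no filter, an every-array filter, no batch term, a replicate block, the mean of all detected probes of a gene, and leaving out each culture.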

Additional observations from a re-analysis of the deposited data

How the results depend on the processing

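The fractions differed in the same way under most settings. Leaving out each culture in turn gave 39 to 40 members called between polysome and total RNA, beside 5550 to 5807 of all 12644 genes. The median was -1.03 to -0.93 for the ER-translated members and -0.01 to 0.12 for the cytosol-translated members. The ER-translated median was -0.63 with the authors' deposited log2 values, and the cytosol-translated median was 0.47 over genes detected on every array. Between fractions, Tmed5 reversed to -0.015 with the deposited values and Copg1 to -0.39 with the mean of all probes.

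The count of 1 member for 4Ei-1 at 100 and 200 µM in efficiency became 0 with the deposited values, without background correction, over genes detected on every array (where Srp72 was not tested) and without the batch term. Without the filter on dim probes the dose trend in efficiency called 1 member and the lines differed in 2 in polysome RNA, which became 0 over genes detected on every array. Without the batch term, 3 members each were called for the dose trend in efficiency and in polysome RNA, 1 for 4Ei-1 against 4Ei-4 in polysome RNA, and 12 and 9 between the lines in polysome and total RNA. Shares of all genes called under these settings are not given here, so the counts are not a result about the members. Values that reversed without the batch term, none of them called, were Sec16a in polysome RNA on induction (0.038); Copb2 efficiency (-0.21) and total RNA (0.18), Sec61a2 (-0.21) and Srp14 (1.17) in polysome RNA and Srp9 in total RNA (0.21) at 10 µM; Rpn2 in polysome RNA (0.29) and Sec63 in total RNA (-0.091) at 50 µM; Srp14 in total RNA at 100 µM (-0.052); and Sec31a efficiency (0.034) and Sec61g total RNA (-0.10) in the dose trend. Without that term the values are differences or slopes of plain group means, and the groups were spread unevenly over the batches. What set the batches apart was not tested.

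Leaving out 1 culture gave 0 to 1 members called in efficiency for induction, 50 µM, 100 µM and the dose trend and 0 to 2 at 200 µM, 0 to 1 in total RNA at 100 µM, at 200 µM and for the dose trend, and 0 to 1 in polysome RNA and 2 to 7 in total RNA between the lines. Over all 12644 genes, the efficiency fits called 0 to 35 for induction and 0 to 192 at 50 µM. They called 21 to 168 at 100 µM, 9 to 122 at 200 µM and 0 to 46 for the dose trend. In total RNA the counts were 54 to 181 at 100 µM, 34 to 147 at 200 µM and 1 to 65 for the trend. Between the lines they were 182 to 401 genes in polysome RNA and 453 to 1443 in total RNA. The members gained within the inducible line were Tmed8 in efficiency without 0 µM replicate 3 (induction, 50 and 200 µM) and in total RNA without 200 µM replicate 1 (200 µM and trend); Stt3a in efficiency without 100 µM replicate 3 (100 µM) or 200 µM replicate 1 (200 µM and trend); and Srp72 in total RNA without 100 µM replicate 1 (100 µM and trend) or 200 µM replicate 3 (200 µM), and in the efficiency trend without any 1 of 7 cultures. The 7 between the lines came without inducible replicate 3. At 50 µM, leaving out 1 culture moved Srp54a efficiency between -0.16 and 1.47, Rpn2 polysome RNA between -0.75 and 0.015 and Spcs3 polysome RNA between -0.64 and 0.024, none of them called.

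Same-numbered cultures deviated together (every pair's correlation over 0.1) in 3 of 24 comparisons and measures: induction in total RNA, 100 µM in efficiency and 200 µM in polysome RNA. With the replicate block, 0 members were called in efficiency at 100 µM (Srp72 adjusted p = 0.0658, limma), and at 200 µM Srp72 was still called (0.046). No other count of called members moved by over 1.5 times with the block.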
